A study of Homo sapiens with 34 samples.

Results

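Imprinted growth genes were followed through the first 2 days of human pluripotent stem cell differentiation towards definitive endoderm, paraxial mesoderm and lateral mesoderm. The set named 10 genes: H19, IGF2, DLK1, MEG3, PEG3, PEG10, MEST, CDKN1C, PHLDA2 and GRB10. Members were the rows of the gene-level count tables whose symbol equalled one of these names, and 8 of the 10 were found among 35940 symbols. H19 and MEG3, both long non-coding RNAs, are not analysed here. All 8 genes passed the filter on low counts and were tested together with all 17236 genes that passed it.

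The cells were wild-type ESI017, an established human embryonic stem cell line, so that the 34 libraries share one genotype. Each of 17 conditions was represented by 2 libraries labelled as biological replicates. The mTeSR PLUS Control was the undifferentiated culture, labelled 48 h. On day 1, for 24 h, cells received one of 4 protocols. DE(a) combined activin at 100 ng/ml with CHIR99021 at 2 µM. APS held activin at 30 ng/ml, bFGF at 20 ng/ml and CHIR99021 at 4 µM. MPS held CHIR99021 at 6 µM, BMP4 at 40 ng/ml, and the activin and bFGF doses of APS. PPS was MPS without activin. CHIR99021 activates WNT signalling through inhibition of GSK3. APS, MPS and PPS stand for anterior, mid and posterior primitive streak. Each day 1 population was either sequenced or passed for another day into one of 3 media. DE(b) held activin at 100 ng/ml and the BMP receptor inhibitor LDN-193189 at 250 nM. PM held the activin and TGF-beta receptor inhibitor A-8301 at 1 µM, LDN-193189 at 250 nM and bFGF at 20 ng/ml. The labels name no CHIR99021 in PM, whereas the study's text describes the APS-PM protocol elsewhere with CHIR99021 on day 2, and which medium these PM libraries received is not settled here. Every comparison with PM carries this doubt. LM held A-8301 at 1 µM, the WNT secretion inhibitor IWP2 at 4 µM and BMP4 at 30 ng/ml. A condition is written here as its day 1 protocol followed by its day 2 medium, for example APS-LM. All cells came from a single line on defined medium, so the values describe that line only.

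Imprinted genes are transcribed mainly from the copy inherited from one parent, because methylation laid down in the germ line marks one copy of a control region and is kept through cell division. Paternally expressed members such as IGF2, DLK1, PEG3, PEG10 and MEST are known mainly as promoters of fetal and placental growth, and maternally expressed members such as CDKN1C, PHLDA2 and GRB10 mainly as restraints on it, although GRB10 is expressed from the other copy in some tissues. Many of these genes are low in the early embryo and strongly expressed in fetal mesoderm and placenta. Gene-level counts do not separate the parental copies, and neither allelic expression nor methylation was measured. The libraries were made from whole cultures, in which fewer cells of a type and less RNA per cell cannot be told apart.

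The 8 members lie on 4 chromosomes, given here in GRCh38 with GENCODE v44 gene boundaries. IGF2 (ENSG00000167244, chr11:2129112-2158391), CDKN1C (ENSG00000129757, chr11:2883213-2885775) and PHLDA2 (ENSG00000181649, chr11:2928273-2929420) share 11p15, with 724.8 kb between IGF2 and CDKN1C and 42.5 kb between CDKN1C and PHLDA2, all 3 on the minus strand. H19 lies 124.6 kb from IGF2. DLK1 (ENSG00000185559, chr14:100725705-100738224, plus strand) lies 41.2 kb from MEG3. PEG3 (ENSG00000198300, chr19:56810077-56840728, minus strand) stands alone, as do PEG10 (ENSG00000242265, chr7:94656325-94669695, plus strand), MEST (ENSG00000106484, chr7:130486171-130506465, plus strand) and GRB10 (ENSG00000106070, chr7:50590063-50793462, minus strand), which are in separate regions of chromosome 7.

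RefSeq promoter windows matched 2 of the 8 genes, MEST and GRB10, and not IGF2, DLK1, PEG3, PEG10, CDKN1C or PHLDA2. Both matched genes have several annotated start sites, and the starts matter because a gene-level count sums over them. Each RefSeq promoter window (GRCh38.p14) runs from 250 bases before a start to 50 bases after it. Capitals mark the hexamer TGCCGC or its reverse complement GCGGCA, the letters that the imprint-protecting zinc finger protein ZFP57 recognises when they are methylated. Among 35116 windows of this length, 16.7% held the hexamer on either strand and the median window held 14 CG dinucleotides. The hexamer was in 4 of the 5 MEST windows and in 1 of the 5 GRB10 windows. The 4 MEST windows overlap in pairs, and the windows of a pair share hexamers. They are therefore not separate windows to set against the 16.7%. The windows shown were chosen after the hexamer was counted: the outermost start of each gene, and the MEST window with the most hexamers. The first MEST window, chr7:130485925-130486224, holds 13 CG dinucleotides and 1 hexamer, with 54 bases in exons and 246 bases upstream of the gene. The other MEST window shown, chr7:130491835-130492134, holds 25 CG dinucleotides and 3 hexamers, 2 of them overlapping, with 50 bases in exons and 250 in introns of longer MEST transcripts. The GRB10 window at the 5′ end of the gene, chr7:50793404-50793703 on the minus strand, holds 44 CG dinucleotides and 1 hexamer, with 59 bases in exons and 241 bases upstream of the gene.
MEST, upstream start: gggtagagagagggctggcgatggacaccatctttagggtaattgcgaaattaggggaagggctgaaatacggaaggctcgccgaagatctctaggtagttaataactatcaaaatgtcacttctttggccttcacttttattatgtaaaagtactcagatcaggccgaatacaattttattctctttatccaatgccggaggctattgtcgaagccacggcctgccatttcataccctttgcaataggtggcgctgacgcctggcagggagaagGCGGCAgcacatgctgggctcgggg
MEST, internal start: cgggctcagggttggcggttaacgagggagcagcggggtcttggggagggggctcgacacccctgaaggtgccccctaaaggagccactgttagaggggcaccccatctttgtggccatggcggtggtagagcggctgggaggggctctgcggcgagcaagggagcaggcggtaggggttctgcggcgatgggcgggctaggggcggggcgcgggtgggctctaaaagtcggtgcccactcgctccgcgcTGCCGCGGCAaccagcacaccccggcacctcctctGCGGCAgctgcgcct
GRB10, 5′ start: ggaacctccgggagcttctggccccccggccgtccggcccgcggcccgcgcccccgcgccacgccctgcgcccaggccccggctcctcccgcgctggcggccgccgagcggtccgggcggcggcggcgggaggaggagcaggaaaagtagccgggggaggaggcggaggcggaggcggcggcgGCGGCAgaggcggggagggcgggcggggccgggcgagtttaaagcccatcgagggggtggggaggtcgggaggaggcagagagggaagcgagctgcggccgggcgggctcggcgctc

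Levels are given as CPM, the count of a gene scaled to a common library total, with the 2 replicates of a condition written in order. Library totals ran from 15522780 to 23439799 estimated counts, with a median of 19341118, so that 3 counts, taken as the lowest level that can be read, equalled 0.128 to 0.193 CPM. This floor covers counting error only. Transcript lengths were not in the tables, so a level is compared for one gene between conditions and never between genes. The labels were checked against marker genes. Endoderm markers SOX17, FOXA2, CXCR4 and CER1 summed to between 3453 and 6432 CPM in DE(b), of which CER1 alone held 3329 to 6006 CPM. In PM the same sum was 234 to 335 CPM. CXCR4 went the other way, at 156 to 335 CPM in PM against 9.25 to 168 CPM in DE(b). Paraxial markers TBX6, MSGN1, HES7 and MEOX1 summed to between 263 and 416 CPM in PM. MEOX1 was at 0 to 0.13 CPM in MPS-PM and PPS-PM. Lateral markers HAND1, ISL1, HAND2 and FOXF1 summed to between 460 and 2339 CPM in LM, of which HAND1 alone held 388 to 2127 CPM. FOXF1 was at 81.6 to 93.4 CPM in MPS and PPS at 24 h, against 20.6 and 40.4 CPM in DE(a)-LM. Streak markers TBXT, MIXL1 and EOMES summed to 1574 to 2955 CPM at 24 h. They also summed to 1021 to 1739 CPM in DE(b) and 279 to 761 CPM in PM, against 1.28 to 19.4 CPM in LM. EOMES was at 12.2 and 31.0 CPM in PPS at 24 h. Pluripotency markers POU5F1, NANOG, SOX2, DPPA4, L1TD1 and PRDM14 summed to 4403 to 4424 CPM in the control and 279 to 801 CPM in LM. Most of the LM sum was POU5F1, DPPA4 and L1TD1. NANOG was at 0 to 3.51 CPM in LM, against 171 and 188 CPM in the control. PRDM14 was at 0.32 to 2.79 CPM, against 140 and 136 CPM, and SOX2 at 0.11 to 26.5 CPM, against 331 and 278 CPM.

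**Figure D1:**
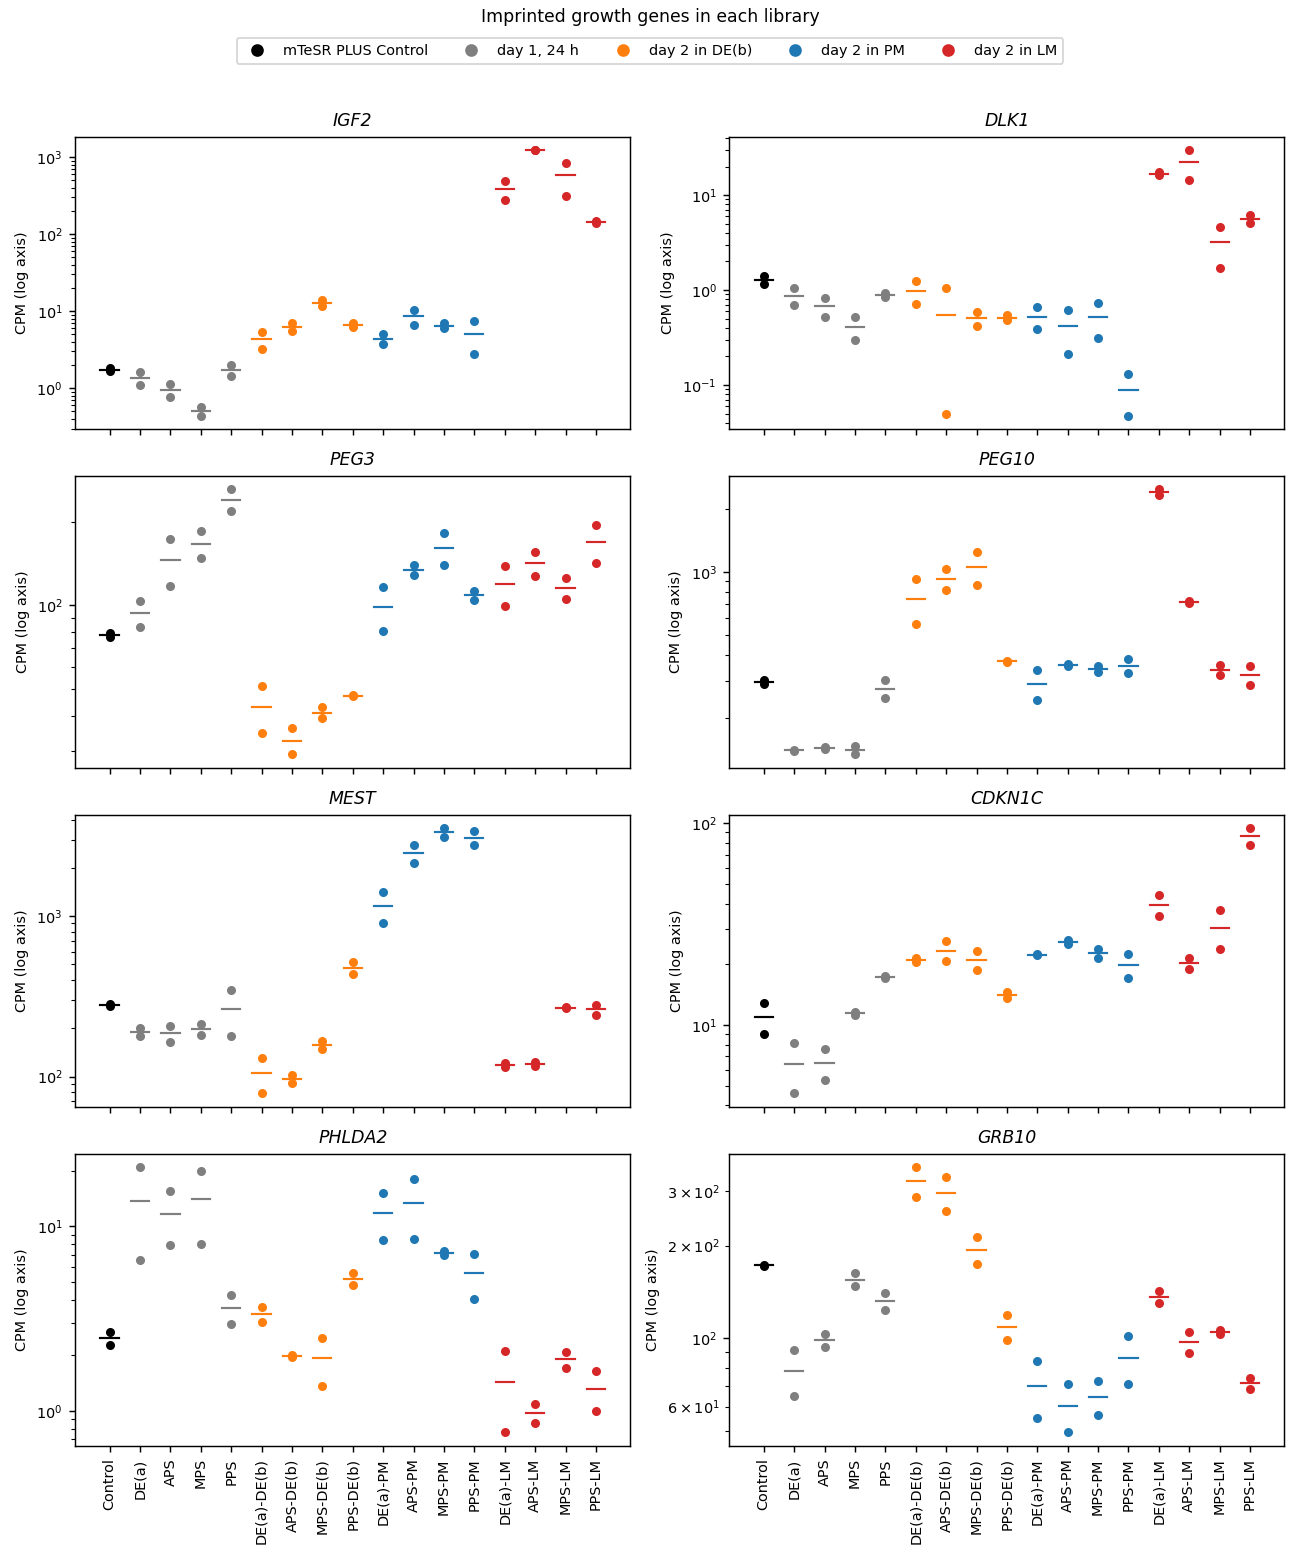
Level of each of the 8 genes in every library, in CPM on a log axis; each point is 1 library, each bar a condition mean, conditions are ordered as control, day 1 populations at 24 h, then DE(b), PM and LM, and colours mark the medium. IGF2 and DLK1 were above all other libraries in all 8 LM libraries, and MEST in all 8 PM libraries.

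IGF2, the insulin-like growth factor that drives fetal growth, was the member that moved furthest, and it did so in one medium. In the control it stood at 1.67 and 1.82 CPM, and at 24 h the 8 libraries lay between 0.442 and 2.01 CPM. In LM it reached 278 and 496 CPM from DE(a), 1221 and 1231 CPM from APS, 847 and 312 CPM from MPS, and 148 and 139 CPM from PPS. All 8 LM libraries were above every other library, the highest of which held 14.2 CPM in MPS-DE(b). The replicates of APS-LM lay close together, whereas those of MPS-LM differed by 2.72-fold. Against the control the log2 fold change was 7.78 (SE 0.50) for DE(a)-LM, 9.50 (SE 0.53) for APS-LM, 8.46 (SE 0.52) for MPS-LM and 6.45 (SE 0.48) for PPS-LM. IGF2 also passed the test against the control in all 12 day 2 conditions, with log2 fold changes from 1.31 upwards. Of these calls, that for DE(a)-DE(b) was lost without its replicate 2 or either control library (adjusted p up to 0.279), that for DE(a)-PM without any one of its own libraries or the controls (up to 0.186), and that for PPS-PM without its replicate 2 or control replicate 1 (up to 0.385). In DE(b) and PM, however, its level was only 2.77 to 14.2 CPM.

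DLK1, a transmembrane relative of the Notch ligands that is shed as a soluble growth regulator, followed the same medium at far lower counts. The control libraries held 1.40 and 1.17 CPM. In LM the values were 16.4 and 17.4 CPM from DE(a), 29.7 and 14.5 CPM from APS, 4.63 and 1.71 CPM from MPS, and 6.22 and 5.04 CPM from PPS, and all 8 exceeded the highest library elsewhere, a control at 1.40 CPM. The MPS-LM libraries came closest to that level. In PPS-PM only 3 and 1 counts were found. From the summed counts, the control was 14.3-fold higher than PPS-PM (95% exact interval 5.26 to 54.4, counting error only) and the PPS population at 24 h 9.88-fold higher (3.51 to 38.4). APS-DE(b) held 1.05 CPM in one library and 0.0493 CPM, a single count, in the other, which was the widest difference between DLK1 replicates.

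GRB10, an adaptor that binds the activated insulin and IGF1 receptors and dampens their signalling, was high in DE(b) and low in PM. It held 287 and 360 CPM in DE(a)-DE(b), 258 and 334 CPM in APS-DE(b), 174 and 213 CPM in MPS-DE(b), and 98.6 and 119 CPM in PPS-DE(b). The first 3 of these conditions, 6 libraries, were above every library outside DE(b), while PPS-DE(b) lay below the control at 173 and 172 CPM. PM libraries ranged from 49.5 to 102 CPM and LM libraries from 68.6 to 142 CPM, all below the control. Of the 12 day 2 conditions, 8 were lower than the control by the test and 2 were higher. The APS-DE(b) call, a higher one, was lost without its replicate 2, and the APS-LM call without its replicate 1. The calls for PPS-DE(b) and MPS-LM were lost without either of their own libraries or either control library. That for PPS-DE(b) was also lost without PPS-LM replicate 2.

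MEST, which encodes a hydrolase-like protein of mesodermal tissues, was the marker of PM within the set. The control held 276 and 285 CPM and the 24 h libraries 165 to 348 CPM. PM raised it to 900 and 1412 CPM from DE(a), 2788 and 2155 CPM from APS, 3537 and 3122 CPM from MPS, and 3371 and 2791 CPM from PPS. Each of these 8 libraries was above every other library, the highest of which was PPS-DE(b) at 518 CPM. Outside PM the LM libraries held 115 to 281 CPM and the DE(b) libraries from DE(a), APS and MPS 78.4 to 165 CPM, none above the higher control library, whereas PPS-DE(b) stood above both control libraries at 518 and 437 CPM.

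PEG3, a large zinc finger protein linked to cell survival and maternal behaviour, was lowest in DE(b). There all 8 libraries, at 29.1 to 51.2 CPM, were below every other library, the lowest of which was a control at 77.0 CPM. Its highest level was in PPS at 24 h, at 219 and 262 CPM. PM and LM covered overlapping ranges of 80.6 to 182 CPM and 99.7 to 195 CPM.

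PEG10, a retrotransposon-derived gene needed for the placenta, was split by day 1 protocol as well as by medium. DE(a)-LM held 2330 and 2484 CPM, above all other libraries. From APS the LM libraries held 710 and 729 CPM, from MPS 322 and 359 CPM and from PPS 287 and 356 CPM, so that the last 2 conditions overlapped each other. The control, at 290 and 305 CPM, lay within the range of PPS-LM. In DE(b) the values were 927 and 563 CPM from DE(a), 1036 and 821 CPM from APS, 1244 and 861 CPM from MPS, and 376 and 373 CPM from PPS. PM libraries stayed between 243 and 383 CPM.

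CDKN1C, the cyclin-dependent kinase inhibitor p57, and PHLDA2, a small pleckstrin homology domain protein that restrains placental growth, were each listed under 2 identifiers whose counts were added. Only the first identifier of each is in GENCODE v44. The other one carried 3.0% to 70.5% of the CDKN1C counts (median 16.8%). For PHLDA2 it carried from none to all of the counts: it was at 0 in 21 libraries, and the GENCODE identifier was at 0 in 4. How much of the reads each identifier received therefore varied between libraries, and values for these 2 genes rest on the sum. With the identifiers kept apart, only the GENCODE identifier was tested and counts under the other one were dropped. PHLDA2 then entered at 0 in MPS replicate 2, where the other identifier held 164 counts, and in control replicate 2, where it held 43. A call lost in this setting therefore does not by itself show that the summed difference was weak.

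**Figure D2:**
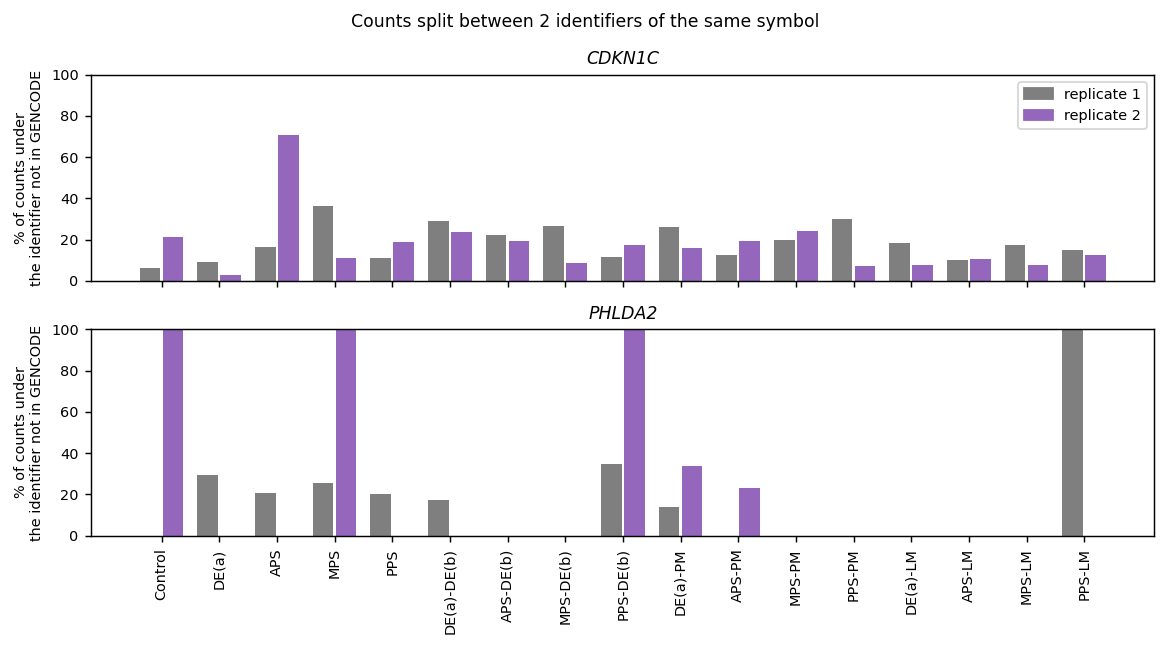
Share of the summed counts of CDKN1C and PHLDA2 that was listed under the identifier absent from GENCODE v44, in percent, for each library. The share ranged from 3.0% to 70.5% for CDKN1C and over the whole scale for PHLDA2.

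CDKN1C rose over its control level in 11 of the 12 day 2 conditions, and 7 of these calls were lost with the identifiers kept apart (adjusted p from 0.0602 to 0.185). The control held 12.9 and 9.01 CPM. PPS-LM was the highest, at 94.6 and 77.8 CPM, followed by DE(a)-LM at 34.9 and 43.97 CPM, MPS-LM at 37.1 and 23.8 CPM and APS-LM at 19.01 and 21.6 CPM. DE(b) and PM libraries lay within 13.7 to 26.4 CPM, a range that also held both APS-LM libraries and 1 of the MPS-LM libraries. PHLDA2 behaved differently: its highest means were at 24 h or in PM. At 24 h it stood in DE(a) at 20.96 and 6.60 CPM, APS at 15.52 and 7.91 CPM and MPS at 20.1 and 8.05 CPM, against 2.67 and 2.29 CPM in the control. Replicates of these populations differed by up to 3.18-fold, yet the lower replicate of each was above both controls. PM libraries, at 4.02 to 18.1 CPM, overlapped these populations. In LM PHLDA2 lay between 0.764 and 2.10 CPM, below both control libraries.

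The order of the 17 conditions could be read only coarsely. Of the 16 pairs of neighbours in that order, between 4 (DLK1, PEG3, PEG10, CDKN1C, PHLDA2) and 7 (MEST) had replicates that did not overlap. IGF2 had 6 and GRB10 5. For IGF2, APS-LM stood apart from MPS-LM, which overlapped DE(a)-LM, and PPS-LM stood below both. The ratio of the highest to the lowest condition mean ran from 5.4 for GRB10 to 2436.4 for IGF2.

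The first comparison asked what 24 h of each day 1 protocol had done to the genes relative to undifferentiated cells. All 4 contrasts share the same 2 control libraries. Of 32 gene-by-contrast tests, 13 passed at an adjusted p of 0.05, where 27.7% of all tests in these contrasts did. PEG10 was lower after DE(a), APS and MPS, with log2 fold changes of -0.98, -0.96 and -0.98 (SE 0.21 each) and adjusted p = 0.00116, 0.00106 and 0.000695, and it stood at 134 to 148 CPM in those 6 libraries. In PPS it held 249.5 and 303 CPM, with a log2 fold change of -0.07 that did not pass. PEG3 was higher after MPS by 1.18 (SE 0.24, adjusted p = 0.000406) and after PPS by 1.65 (SE 0.24, adjusted p = 1.05e-05), and after APS by 0.97 (adjusted p = 0.00314), which was lost without APS replicate 2 (adjusted p = 0.092).

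PHLDA2 was higher after DE(a), APS and MPS, with log2 fold changes of 2.57, 2.32 and 2.61 (SE 0.55 each) and adjusted p = 0.00132, 0.00241 and 0.000684. With the identifiers kept apart none of the 3 passed (adjusted p from 0.16 to 0.207), and the DE(a) call was also lost without DE(a) replicate 1 (adjusted p = 0.0815). GRB10 was lower after DE(a) (log2 fold change -1.04, SE 0.23, adjusted p = 0.00181) and after APS (-0.72, SE 0.23, adjusted p = 0.021). The first call was lost without DE(a) replicate 2 (adjusted p = 0.054), and the second without either APS library or either control library (adjusted p from 0.056 to 0.133). CDKN1C fell in APS by 0.68 on the log2 scale (adjusted p = 0.0485), a call that was lost without any one of 13 libraries, among them APS replicate 2 and control replicate 1 (adjusted p from 0.0505 to 0.416). In PPS it was 0.69 higher (adjusted p = 0.0324), and this was lost without PPS replicate 1, PPS replicate 2 or control replicate 2 (adjusted p from 0.0931 to 0.281) and with the identifiers kept apart (adjusted p = 0.253). IGF2, DLK1 and MEST were not called by edgeR in a day 1 contrast, with log2 fold changes from -1.67 to 0.00, from -1.53 to -0.46 and from -0.51 to -0.06. The IGF2 value in MPS, -1.67, lay close to the threshold (adjusted p = 0.053): it passed with DESeq2 (adjusted p = 0.00486), with only the libraries compared (0.0368), without the filter on low counts (7.55e-06) and without any one of 8 day 2 libraries, both of APS-PM, PPS-PM, DE(a)-LM and MPS-LM (0.0232 to 0.0475). The IGF2 counts in MPS were 13 and 9, against 37 and 34 in the control. Without the filter the fold change was -1.69, so its size hardly moved while the adjusted p did. With only the libraries compared, MEST was called in DE(a) and MPS (adjusted p = 0.0483 and 0.0391). Without the filter, IGF2 and MEST were called in APS (adjusted p = 0.05 after rounding and 0.0242) and DLK1 in MPS (0.0264), the last also without either APS-DE(b) library (0.0362 to 0.0389).

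**Figure D3:**
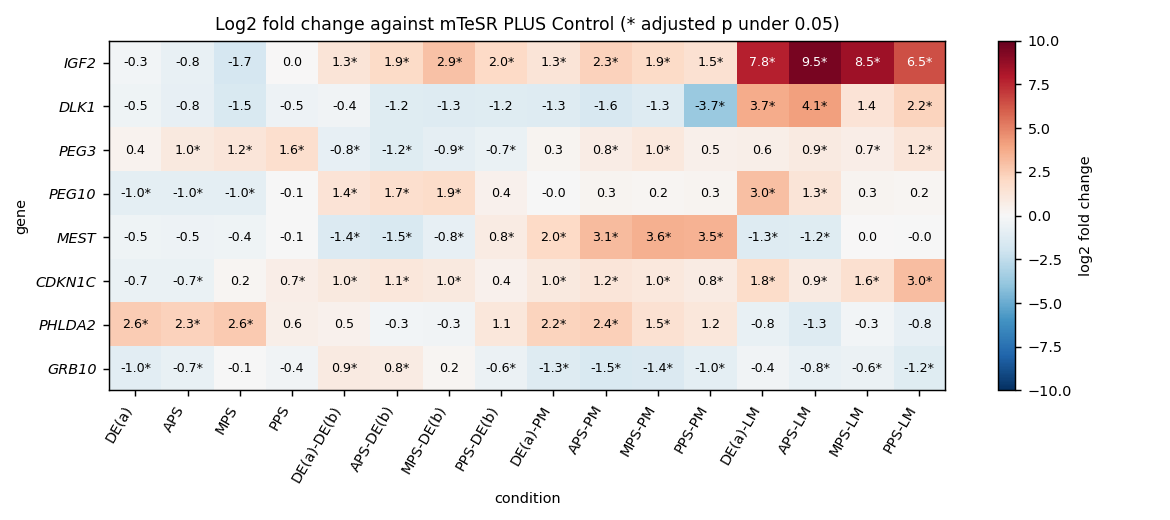
Log2 fold change of each of the 8 genes against the mTeSR PLUS Control in the 4 day 1 populations and the 12 day 2 conditions, from the edgeR fit; cells with an asterisk passed at an adjusted p of 0.05. IGF2 reached 9.50 in APS-LM, and MEST 3.56 as its highest value, in PM.

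The next question was whether the 4 day 1 populations differed among themselves. In a joint test 5 of the 8 genes passed, against 20.2% of all genes: PEG3 (adjusted p = 0.0022), PEG10 (0.00184), CDKN1C (0.000253), PHLDA2 (0.0287) and GRB10 (0.0124). PEG3 and CDKN1C kept their calls with any library left out. The PEG10 call was lost without PPS replicate 2 (adjusted p = 0.0802), the GRB10 call without DE(a) replicate 2 or MPS replicate 1 (adjusted p from 0.0676 to 0.0791), and the PHLDA2 call without either PPS library (adjusted p from 0.108 to 0.307) or with the identifiers kept apart (adjusted p = 0.77). PEG3 means went from 93.6 CPM in DE(a) through 145 in APS and 167 in MPS to 241 in PPS, and CDKN1C means from 6.39 and 6.50 CPM in DE(a) and APS to 11.4 in MPS and 17.3 in PPS.

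Neighbouring protocols differ by named factors, and these steps gave few calls. Between APS and DE(a), where 0.777% of all genes passed, and between MPS and APS, where 3.32% did, no member was called by edgeR with all libraries and the filter on low counts. Before adjustment, PEG3 alone was under 0.05 by edgeR in the first step, and CDKN1C and GRB10 in the second. DESeq2 called none in the first step and CDKN1C in the second (adjusted p = 0.0305). The second step also gave calls without the filter, for CDKN1C (adjusted p = 0.02) and GRB10 (0.0112), with a replicate block for GRB10 (0.0453), and without either DE(a) library for CDKN1C (0.041). Between PPS, which lacks activin, and MPS, 7.06% of all genes passed and 2 members did: PEG10 was higher in PPS by 0.90 on the log2 scale (SE 0.21, adjusted p = 0.0082), and PHLDA2 was lower (-2.03, SE 0.54, adjusted p = 0.0206). Both calls were lost without MPS replicate 1 or PPS replicate 2, with adjusted p of 0.122 to 0.126 for PEG10 and 0.245 to 0.444 for PHLDA2. The PHLDA2 call was also lost with the identifiers kept apart (adjusted p = 0.646) and with only the libraries compared (0.0597). IGF2 was called in this step by DESeq2 (log2 fold change 1.70, adjusted p = 0.0186) and without the filter (6.07e-05), but not by edgeR (0.139).

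At 48 h, 64 of 96 tests of the 8 genes in 12 conditions against the control passed, where 39.8% of all tests did. CDKN1C was higher in 11 conditions, PEG3 was higher in 5 and lower in 4, and MEST was higher in 5 and lower in 5. PEG10 was higher in 5, DLK1 was higher in 3 and lower in 1, and PHLDA2 was higher in 3, none of which passed with the identifiers kept apart (adjusted p from 0.108 to 0.224). All 12 contrasts share the control libraries. Leaving out each library in turn kept 45 of the 64 calls.

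The change over day 2 itself was read from each condition against its own day 1 population, and here 63 of 96 tests passed, where 28.9% of all tests did. IGF2 rose in all 12, by 1.55 to 10.27 on the log2 scale. The 3 smallest of these calls rested on single libraries: DE(a)-DE(b) (1.59) was lost without its replicate 2 or DE(a) replicate 1 (adjusted p up to 0.195), DE(a)-PM (1.58) without its replicate 1 or either DE(a) library (up to 0.175), and PPS-PM (1.55) without its replicate 2 or either PPS library (up to 0.483). The PPS-PM call was also lost with only the libraries compared (adjusted p = 0.141). PEG10 was higher in 9 and CDKN1C in 10, with none lower for either gene. PHLDA2 was lower in 6 and higher in none, but none of the 6 passed with the identifiers kept apart (adjusted p from 0.0859 to 0.344), which also ended 2 of the 10 CDKN1C calls. PEG3 was lower in 5 and higher in none. GRB10 was higher in 3 and lower in 4, MEST was higher in 5 and lower in 4, and DLK1 was higher in 4 and lower in 1. The 3 media share each 24 h population. With every library left out in turn, 45 of the 63 calls were kept.

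The effect of the day 2 medium, averaged over the 4 day 1 protocols, gave 18 calls of 24, and each of the 18 also passed with any one library left out. Between PM and DE(b), 5 of 8 genes passed (44.9% of all genes). MEST was 3.75 higher in PM on the log2 scale (SE 0.14, adjusted p = 3.38e-16), PHLDA2 1.58 higher (SE 0.27, adjusted p = 3.85e-05) and PEG3 1.54 higher (SE 0.12, adjusted p = 2.17e-10). GRB10 fell by 1.66 (SE 0.12, adjusted p = 3.48e-11) and PEG10 by 1.16 (SE 0.10, adjusted p = 2.26e-09). IGF2 (log2 fold change -0.28, SE 0.21, adjusted p = 0.304), CDKN1C (0.15, SE 0.12, adjusted p = 0.333) and DLK1 (-0.95, SE 0.41, adjusted p = 0.0612) did not pass. The DLK1 value passed without APS-DE(b) replicate 2, APS-PM replicate 1 or MPS-PM replicate 2 (adjusted p from 0.00565 to 0.0419), and the IGF2 value without PPS-PM replicate 2 (adjusted p = 0.0496).

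Between LM and DE(b), 6 of 8 passed (41.5% of all genes). IGF2 was 6.01 higher in LM (SE 0.23, adjusted p = 5.19e-16), DLK1 3.89 higher (SE 0.34, adjusted p = 1.37e-09), PEG3 1.74 higher (SE 0.12) and CDKN1C 0.96 higher (SE 0.12, adjusted p = 4.39e-07). GRB10 was lower (log2 fold change -1.08, SE 0.12), as was PHLDA2 (-1.05, SE 0.29, adjusted p = 0.00598), a call lost with the identifiers kept apart (adjusted p = 0.331). PEG10 (-0.12, adjusted p = 0.363) and MEST (0.10, adjusted p = 0.558) did not pass, and for PEG10 this average covers day 1 protocols that differed widely.

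Between LM and PM, 7 of 8 passed (44.0% of all genes). IGF2 was 6.29 higher in LM (SE 0.23, adjusted p = 2.86e-16), DLK1 4.83 (SE 0.36), PEG10 1.03 (SE 0.10), CDKN1C 0.81 (SE 0.12) and GRB10 0.58 (SE 0.11). MEST was lower in LM (-3.65, SE 0.14, adjusted p = 4.97e-16), as was PHLDA2 (-2.63, SE 0.29, adjusted p = 6.4e-08). PEG3 was not called (0.19, SE 0.12, adjusted p = 0.203). The median log2 fold change over all genes tested was 0.013, 0.018 and 0.005 in these 3 contrasts. The 3 contrasts use the same 24 libraries. Each of the 18 called differences had the same sign in both tables, one per replicate number.

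**Figure D4:**
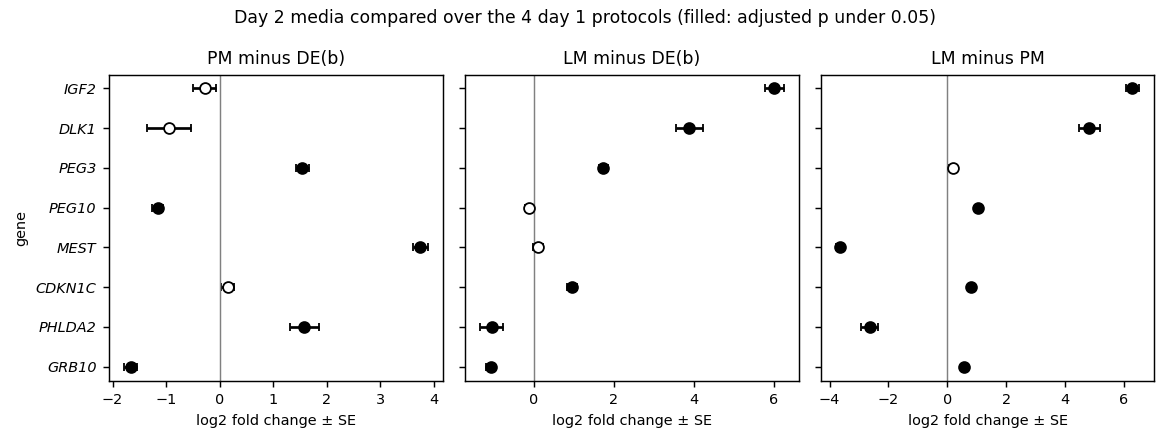
Log2 fold change of each gene between the day 2 media, averaged over the 4 day 1 protocols, with standard errors from the edgeR fit, filled where the adjusted p was under 0.05. IGF2 and DLK1 were higher in LM, MEST was higher in PM, and PEG3 was lower in DE(b) than in either other medium.

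Markers of other cell types also moved with LM. Amnion markers GATA3, TFAP2A, TFAP2C, GABRP, VTCN1 and WNT6 (6 of 6 listed) summed to 69.1 to 402 CPM in LM, against 16.5 to 31.1 CPM in DE(b) and 9.66 to 18.3 CPM in PM. Blood and endothelial markers PECAM1, CDH5, TAL1, KDR and ETV2 (5 of 5) summed to 289 to 1509 CPM in LM, against 53.3 to 109 CPM in DE(b) and at most 114 CPM in PM. Nearly all of this sum was KDR, which held 288 to 1506 CPM in LM and 158 and 198 CPM in the control. The defining markers were near 0 in LM, with PECAM1 at 0 to 1.05 CPM, CDH5 at 0 to 0.76 CPM, TAL1 at 0 to 0.13 CPM and ETV2 at 0.71 to 3.46 CPM. Their part in the levels of IGF2, DLK1, PEG10 and CDKN1C was not tested. Trophoblast markers CGA, GCM1, ERVW-1, HLA-G, CYP19A1 and PSG1 (6 of 6) summed to 0.52 to 3.5 CPM in LM, with PSG1 at 0 in all 8 libraries, and to 0.24 to 7.01 CPM in DE(b).

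The last set of tests asked whether the day 1 protocol left a difference at 48 h. Within DE(b), 4 of 8 genes passed the joint test over protocols, against 18.1% of all genes: MEST (adjusted p = 2.49e-07), PEG10 (8.87e-05), GRB10 (0.000117) and IGF2 (0.0351). The IGF2 call was lost without any one of 6 DE(b) libraries, namely both PPS-DE(b) and both MPS-DE(b) libraries, APS-DE(b) replicate 1 and DE(a)-DE(b) replicate 1 (adjusted p from 0.0517 to 0.22). Within PM, 1 of 8 passed, against 8.51% of all genes: MEST (adjusted p = 0.00101), lost without DE(a)-PM replicate 1 (adjusted p = 0.0538). Within LM, 5 of 8 passed, against 21.5% of all genes: PEG10 (adjusted p = 8.55e-10), CDKN1C (1.67e-06), IGF2 (1.18e-05), MEST (0.000143) and DLK1 (0.00282), and each kept its call with any library left out. GRB10 lay close to the threshold within LM (adjusted p = 0.0614). It passed with DESeq2 (0.0324), a replicate block (0.0174), only the libraries compared (0.0273) and no filter on low counts (0.00155). It also passed without any one of 6 libraries, both of DE(a)-PM, APS-PM and PPS-PM (0.0378 to 0.0474).

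Whether the effect of the medium depended on the day 1 protocol was tested as an interaction over the 12 day 2 conditions. It passed for 5 of 8 genes, against 14.8% of all genes: PEG10 (adjusted p = 1.46e-07), CDKN1C (3.54e-05), MEST (0.00138), GRB10 (0.0015) and IGF2 (0.00426). All 5 calls held with any library left out. With a replicate block, and likewise without the filter on low counts, 8 of 8 passed.

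**Figure D5:**
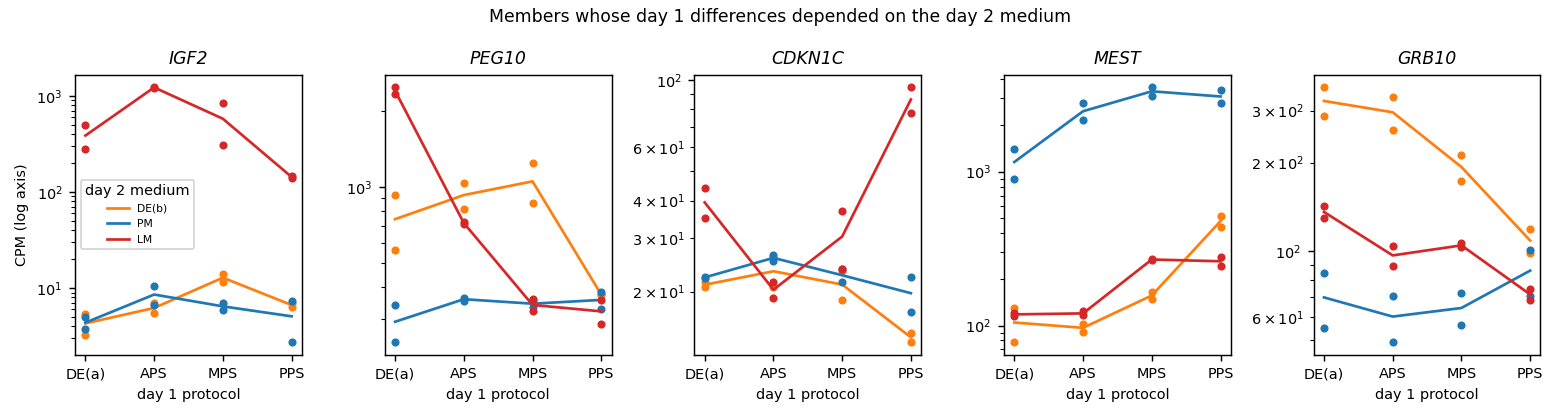
Levels of IGF2, PEG10, CDKN1C, MEST and GRB10, the 5 genes with a called interaction, at 48 h by day 1 protocol, from DE(a) to PPS, in CPM on a log axis, with a line through the condition means for each medium and a point for each library. In LM, PEG10 went from 2407 CPM in DE(a)-LM to 321 CPM in PPS-LM, while CDKN1C went from 39.4 to 86.2 CPM.

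The ends of the day 1 series, PPS and DE(a), gave the sizes. In DE(b), 3 of 8 genes passed, against 18.8% of all genes. MEST was 2.23 higher after PPS on the log2 scale (SE 0.26, adjusted p = 1.64e-06), GRB10 was lower (-1.53, SE 0.23, adjusted p = 4.4e-05) and PEG10 was lower (-0.95, SE 0.21, adjusted p = 0.00191), the last lost without DE(a)-DE(b) replicate 1 (adjusted p = 0.0726). Lineage markers differed in the same condition. PPS-DE(b) held SOX17 at 113 and 224 CPM and FOXA2 at 2.17 and 11 CPM, against 330 to 553 and 17.2 to 125 CPM from the other protocols, and it held TBX6 at 49.3 and 52.9 CPM and HAND1 at 100.02 and 69.3 CPM, against at most 9.81 and 27.8 CPM. Their part in these 3 differences was not tested. In PM, 1 of 8 passed, against 9.82% of all genes: MEST, 1.43 higher (SE 0.25, adjusted p = 0.000578). In LM, 5 of 8 passed, against 15.7% of all genes. PEG10 was lower after PPS (-2.79, SE 0.22, adjusted p = 5.83e-09), MEST was 1.26 higher (SE 0.25, adjusted p = 0.000937) and CDKN1C was 1.24 higher (SE 0.24, adjusted p = 0.000538). IGF2 (-1.33, SE 0.36, adjusted p = 0.0122) and GRB10 (-0.82, SE 0.23, adjusted p = 0.0157) were lower, and both calls were lost without DE(a)-LM replicate 2, PPS-LM replicate 1 or PPS-LM replicate 2 (adjusted p from 0.0756 to 0.233 for IGF2 and from 0.0741 to 0.111 for GRB10). MEST was thus higher after PPS than after DE(a) in all 3 media, and for it the differences of this contrast between media did not pass (adjusted p = 0.163, 0.0927 and 0.904). The first passed without DE(a)-DE(b) replicate 1 (adjusted p = 0.04), and the second without that library or either PPS library at 24 h (adjusted p from 0.0205 to 0.038). Without the filter on low counts both passed (adjusted p = 0.0251 and 0.00299), and with a replicate block the second did (0.0403).

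In LM the members did not share one order of protocols. IGF2 was highest from APS and DLK1 from APS or DE(a), whose libraries overlapped. PEG10 was highest from DE(a) and CDKN1C from PPS, and MEST was higher from MPS and PPS, at 243 to 281 CPM, than from DE(a) and APS, at 115 to 124 CPM. Summed amnion markers were highest from PPS, at 280 and 402 CPM, and lowest from APS, at 69.1 and 85.2 CPM. KDR was highest from APS, at 974 and 1506 CPM, and lowest from PPS, at 288 and 374 CPM, whereas PECAM1, CDH5 and TAL1 were at 0 to 0.05 CPM in APS-LM. DE(a)-LM, where PEG10 was highest, held SOX17 at 94.8 and 69.6 CPM and FOXA2 at 34.6 and 28.8 CPM. The other LM libraries held at most 5.06 and 2.28 CPM of these. Of the other listed endoderm markers, CER1 was at 2.94 and 0.38 CPM in DE(a)-LM. CXCR4 went the other way, at 5.81 and 3.54 CPM in DE(a)-LM against 9.21 and 10.26 CPM in PPS-LM. Their part in these orders was not tested.

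Genes that neighbour the members were read from lists made by position. In the counts that follow, the share of all genes called in either direction was 44.9% for PM against DE(b), 41.5% for LM against DE(b) and 44.0% for LM against PM. Around MEST on 7q32, 5 of 8 listed genes were tested, and 4 were higher in PM than in DE(b). They included CPA1, a pancreatic carboxypeptidase (20.1 against 0.313 CPM, log2 fold change 7.92, SE 0.41), CPA4 (5.52 against 0.119 CPM, 5.45, SE 0.52) and the centrosomal gene CEP41 (28.9 against 14.2 CPM, 0.98, SE 0.11). Between LM and PM, 4 were lower in LM and none higher. Mean CPA4 levels in DE(b) and LM were under the floor of 0.167 and 0.161 CPM. CPA5 held at most 3 counts in every 24 h, DE(b) and LM library, and its highest condition mean, 0.573 CPM, was in MPS-PM. Genes this low outside PM can pass the filter through their PM libraries. The 7q32 counts are therefore not set against the shares of all genes.

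Around DLK1 on 14q32, 5 of 10 listed genes were tested, with 2 higher and 3 lower in PM than in DE(b) and 1 higher and 3 lower in LM than in DE(b). DIO3, the thyroid hormone-inactivating deiodinase of the same imprinted region, averaged 118 CPM in DE(b), 11.5 CPM in PM and 68.4 CPM in LM (PM against DE(b) -3.99, SE 0.25; LM against DE(b) -1.93, SE 0.22). RTL1, a retrotransposon-derived gene, averaged 7.53 CPM in DE(b) and 0.419 CPM in LM (log2 fold change -4.14, SE 0.46), and in PM the 8 libraries held 2 counts in all, so that DE(b) was 591-fold higher (95% exact interval 163 to 4885, counting error only). DLK1 was highest in LM, where both neighbours averaged less than in DE(b). For DIO3 that average does not describe every LM condition, because its highest condition mean, 223 CPM, was in PPS-LM.

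Around PEG10 on 7q21, 8 of 10 listed genes were tested, and 1 was higher and 4 lower in PM than in DE(b), as in LM against DE(b). The calcitonin receptor CALCR averaged 32.7 CPM in DE(b), 1.26 CPM in PM and 10.9 CPM in LM (PM against DE(b) -5.48, SE 0.26; LM against DE(b) -2.72, SE 0.22), and the actin-binding protein PPP1R9A was lower in both media (-1.43 and -1.80, SE 0.15 each). Around IGF2, CDKN1C and PHLDA2 on 11p15, 9 of 22 were tested, with 2 higher and 2 lower in PM and 1 higher and 2 lower in LM than in DE(b). OSBPL5, a lipid transfer protein gene, was 1.84 higher in PM (SE 0.14) and 1.28 higher in LM (SE 0.14). Around PEG3, 5 of 10 were tested and 1 passed in each medium against DE(b), and around GRB10, 3 of 4 were tested and IKZF1, a lymphoid transcription factor, was 2.82 higher in LM than in DE(b) (SE 0.37) at 10.7 CPM.

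Of 26 other imprinted genes, 19 were tested. In PM against DE(b), 5 were higher and 7 lower (44.9% of all genes passed), with a median log2 fold change of -0.02. The growth-arrest zinc finger gene PLAGL1 was 2.72 higher (SE 0.30) and MAGEL2 fell by 1.39 (SE 0.16). In LM against DE(b), 7 were higher and 2 lower (median 0.23), which is close to the 41.5% of all genes. NNAT, a small membrane protein of developing brain, was 2.25 higher (SE 0.12), and ZNF331 0.81 higher (SE 0.12). Of 10 genes for reading or keeping imprints, all were tested, with 3 higher and 2 lower in PM, and 2 higher and none lower in LM, than in DE(b). UHRF1, which brings the maintenance methyltransferase to replicating DNA, was 0.68 higher in PM than in DE(b) (SE 0.09), and ZNF445, a zinc finger protein that binds imprinted regions, 0.40 higher (SE 0.08). TRIM28, the corepressor that ZFP57 recruits, fell in LM against PM by 0.23 on the log2 scale (SE 0.09, adjusted p = 0.0365), at means of 824 and 1009 CPM.

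Components of the IGF pathway, in which IGF2 signals through the IGF1 receptor, is cleared by the IGF2 receptor and is held by binding proteins, were tested for 18 of 19 genes. In LM against DE(b), 5 were higher and 6 lower (median 0.07), where 41.5% of all genes passed. The binding protein gene IGFBP3 averaged 195 CPM in LM against 0.953 CPM in DE(b) (6.23, SE 0.23) and 0.885 CPM in PM (6.03, SE 0.22). Its highest condition mean was 703 CPM, in PPS-LM, and the LM average leaned on that condition. IRS1, the substrate through which the receptors signal, was 1.99 higher in LM than in DE(b) (SE 0.13), and IGFBP2 fell by 1.62 (SE 0.16). In PM against DE(b), 6 were higher and 5 lower (median 0.07), where 44.9% of all genes passed: IGFBP5 was 4.14 higher (SE 0.54), IRS4 2.50 higher (SE 0.27) and IGFBP4 1.72 higher (SE 0.11).

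Genes whose condition means followed a member most closely over the 17 conditions were found by Pearson's r on the scale of log2(CPM + 1), as a description. IGF2 was followed most closely by LRRC32 (r = 0.992), TMEM185A (0.986) and RECK (0.977), and DLK1 by SULT2A1 (0.970), TMEM190 (0.969) and PODN (0.956). MEST was followed by CPA6 (0.966), PCSK5 (0.959) and AL160191.3 (0.952), and PHLDA2 by TGFA (0.949), FUT4 (0.913) and PCGF1 (0.913). PEG3 was followed by HABP4 (0.935), PHC3 (0.898) and SERPINB8 (0.891), PEG10 by DSTNP2 (0.912), S100A16 (0.906) and TRO (0.902), CDKN1C by MMD (0.915), USP35 (0.912) and ADAM10 (0.911), and GRB10 by BNIP3P17 (0.898), AMMECR1 (0.879) and KLC4 (0.875). With Spearman's rho in place of r, 1 of the 3 genes remained for IGF2, 2 for PHLDA2 and 0 for each of the other 6, so these names depend on the measure. The points share libraries, depth and culture conditions.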

How the data were processed

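Poly(A)-selected, strand-specific RNA-seq of 34 ESI017 libraries was deposited as 2 tables of estimated counts per gene, one for each replicate number. Per the authors' notes, reads were quantified with Salmon 1.10.2 on GRCh38, with sequence and GC bias correction, and summed to genes in R 4.4.2; the annotation release is not given in the sources used here. The deposited estimated counts were not normalized, and 0 columns lacked a sample. Estimation shares reads between similar transcripts, so identifiers of one symbol can exchange counts.

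Rows sharing a symbol were summed, rounded and tested with edgeR 4.0.16 in R 4.3.3: quasi-likelihood test, TMM scaling, filterByExpr by condition, 1 mean per condition, all 34 libraries in one fit, and Benjamini-Hochberg adjustment over 17236 of 35940 symbols, called at 0.05. CPM was taken over library totals. P-values measure the spread between libraries labelled as biological replicates. The script was tested on simulated data. Alternatives were RLE scaling, no low-count filter, DESeq2 1.42.0, a replicate block, only the libraries compared, each library left out in turn, TMM-scaled CPM, a pseudocount of 0.1 and Spearman's rho, plus identifiers kept apart, chosen after seeing the data. Fits with a library left out kept the gene filter and the dispersion trend of the fit to all 34 libraries.

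Genes named are all members, the 3 genes most like each by Pearson's r, and from each list at most 4 called genes per comparison, those of largest change that reach 10 CPM in a condition. Of these, the text gives a selection. The members and lists were chosen with earlier results of these data known.

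Pairing by replicate number, which would need every pair of conditions to correlate above 0.1, was not taken up: deviations of same-numbered libraries from their condition means correlated between -0.283 and 0.675 (median 0.197), above 0.1 in 101 of 136 pairs. Libraries of the E-CAD knockout line were not used here.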

Additional observations from a re-analysis of the deposited data

Results flagged for a closer look

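The difference between PPS and DE(a) was itself compared between the day 2 media, and 8 of 24 such differences passed edgeR's test, where 8.50%, 9.81% and 7.22% of all genes did between PM and DE(b), LM and DE(b), and LM and PM. Each value below is a log2 difference of differences, PPS minus DE(a) in the first medium minus the same in the second. For PEG10 it was 1.25 for PM against DE(b) (SE 0.29, adjusted p = 0.00745), -1.84 for LM against DE(b) (SE 0.29, adjusted p = 0.000129) and -3.10 for LM against PM (SE 0.30, adjusted p = 6.79e-07), and the first was lost without DE(a)-PM replicate 1 (adjusted p = 0.0564) and with only the libraries compared (0.099).

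For CDKN1C it was 1.77 for LM against DE(b) (SE 0.34, adjusted p = 0.000916) and 1.39 for LM against PM (SE 0.33, adjusted p = 0.00966). The second was lost without PPS-PM replicate 1, DE(a)-LM replicate 1 or PPS-LM replicate 1 (adjusted p from 0.055 to 0.0738), and both were lost with the identifiers kept apart (adjusted p = 0.108 and 0.235).

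For GRB10 it was 1.85 for PM against DE(b) (SE 0.33, adjusted p = 0.0007) and -1.13 for LM against PM (SE 0.32, adjusted p = 0.0328), the latter lost without DE(a)-PM replicate 1, PPS-PM replicate 2, DE(a)-LM replicate 2 or either PPS-LM library (adjusted p from 0.0818 to 0.201) and with only the libraries compared (0.127). For IGF2 it was -2.01 for LM against DE(b) (SE 0.56, adjusted p = 0.0219), lost without DE(a)-DE(b) replicate 1, DE(a)-LM replicate 2 or any library of PPS-DE(b) or PPS-LM (adjusted p from 0.0536 to 0.129).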

How the results depend on the processing

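No member fold change reversed its sign past the threshold under these alternatives. With RLE scaling all 360 member tests kept their side of the threshold. DESeq2 added 12 calls and took none away, no low-count filter added 40, only the libraries compared added 15 and took away 11, and identifiers kept apart took away 29. The steps between day 1 protocols, with 2 member calls, gave 5 without the filter, 1 with only the libraries compared, 1 with identifiers kept apart and 4 with DESeq2. Without the filter, 5 members in place of 1 passed within PM, 8 in place of 5 passed the interaction, and 14 in place of 9 passed between PPS and DE(a). Over the 34 fits that each left out 1 library, member calls ranged from 3 to 5 among day 1 populations (3 without PPS replicate 2), from 0 to 3 for the steps (0 without MPS replicate 1 or PPS replicate 2) and from 0 to 1 within PM (0 without DE(a)-PM replicate 1). Causes were not tested.

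Most pairs of conditions, 101 of 136, deviated together, so the main fit holds a shared replicate difference within its spread. The fit with a replicate block was kept as an alternative. In it 2 members passed within PM and 8 the interaction, it added 21 calls in all, and it took none away.

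Conditions rest on 2 libraries each, so a fold change leans on the spread shared over conditions. Counts of 3 or fewer, as for DLK1 in PPS-PM, set no level. TMM-scaled CPM stood at 0.953 to 1.05 times the CPM over library totals, and 16 of 136 condition means moved by more than 1 SD of their replicates.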
